A study of Homo sapiens with 6 samples.

Results

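Among the 28265 regions of the deposited SMARCA4 peak list, 303 (1.07%) lay away from transcript starts in CpG-rich sequence that held no G-quadruplex (G4) motif. These distal CpG-rich peaks were chosen by their sequence, position and width, with no use of a peak height, which the list does not hold. A peak qualified if it was at least 200 bp wide and if its midpoint lay more than 1 kb from every GENCODE transcript start on hg19. It also had to hold no G4 motif, taken here as 4 guanine runs, each 3 or more long and separated by 1 to 7 bases, on the plus or the minus strand anywhere in the peak. The rule leaves open where the motif is searched, and a search of the central 200 bp alone, which was not used, gives 412 peaks. The central 200 bp had to hold neither a GATA site nor the AP-1 site known as TRE. The GC content of the whole peak had to reach 55%, and its CpG ratio, the number of CpG dinucleotides divided by the number predicted from the C and G content, had to reach 0.6.

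The study asked whether the chromatin sites of SMARCA4, recovered as an interactor of G4 DNA, coincide with G4 structures in cells. ChIP-seq, which sequences DNA fragments that an antibody recovers with a crosslinked protein, was performed in K562, an established line from a chronic myelogenous leukaemia with erythroid and megakaryocytic features. The labels give 1 condition with 3 SMARCA4 ChIP libraries and 3 input libraries, the inputs being chromatin that did not go through the antibody step. In every library the cells had been fixed for 30 min in 2 mM DSG, an amine-reactive crosslinker, and for 10 min in 1% formaldehyde, and the chromatin had been sheared to fragments of 150 to 400 bp. The paper calls the replicates biological, whereas the series description calls them technical and counts 1 input. A region entered the list if it was present in at least 2 of 3 replicates, so the list pools the replicates and gives a start and an end for each region but no height, no depth and no value per library. No SD between replicates can therefore be given, the intervals below cover counting error only, and peaks are not independent replicates of a condition.

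CpG islands are stretches of vertebrate DNA in which CpG dinucleotides have been retained because they are mostly unmethylated in the germline. Most lie at promoters, but many, termed orphan islands, lie inside genes or between them, where some act as enhancers, as starts of unannotated transcripts or as sites for the insulator protein CTCF. SMARCA4 is an ATPase subunit of the SWI/SNF remodelling complexes, which use ATP to slide and evict nucleosomes at promoters and enhancers.

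To show what this sequence looks like, the central 200 bp of 8 of the peaks are printed below, 5′ to 3′ on the plus strand of hg19, with every CpG in capitals. They stand for the widest peaks, for the peaks with the highest CpG ratio and for the peaks farthest from a start. The first 3 are among the widest. The GNGT2 distal peak was read at chr17:47269504-47269703 and is intergenic. The CLEC11A intron peak was read at chr19:51228057-51228256, in an intron of the gene for a secreted growth factor of haematopoietic and bone progenitors. The STX11 distal peak was read at chr6:144537429-144537628 and is intergenic. The next 3 have the highest CpG ratio among the peaks of at least 400 bp that could be printed. The EBLN1 distal peak at chr10:22518197-22518396 and the GRIN1 distal peak at chr9:140024159-140024358 are intergenic, and the NR2F6 exon peak at chr19:17346487-17346686 lies in a coding exon of an orphan nuclear receptor gene. The last 2 are the farthest from any transcript start. The CUX1 upstream peak at chr7:101386633-101386832 and the PPIAL4G distal peak at chr1:142890951-142891150 are intergenic. Intergenic peaks carry the name of the gene with the nearest protein-coding start.
GNGT2 distal peak: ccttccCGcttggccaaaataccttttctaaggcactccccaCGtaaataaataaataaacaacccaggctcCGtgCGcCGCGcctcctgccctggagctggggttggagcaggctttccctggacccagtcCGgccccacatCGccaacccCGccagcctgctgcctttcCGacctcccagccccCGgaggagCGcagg
CLEC11A intron peak: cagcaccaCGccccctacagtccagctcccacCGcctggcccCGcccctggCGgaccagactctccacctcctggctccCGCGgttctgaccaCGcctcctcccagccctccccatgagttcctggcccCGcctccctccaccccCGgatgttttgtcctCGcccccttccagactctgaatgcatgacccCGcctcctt
STX11 distal peak: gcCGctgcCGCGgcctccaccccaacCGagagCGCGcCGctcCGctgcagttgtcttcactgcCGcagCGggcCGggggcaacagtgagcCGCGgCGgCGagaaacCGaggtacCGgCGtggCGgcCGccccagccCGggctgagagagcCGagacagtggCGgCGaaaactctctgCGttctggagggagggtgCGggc
EBLN1 distal peak: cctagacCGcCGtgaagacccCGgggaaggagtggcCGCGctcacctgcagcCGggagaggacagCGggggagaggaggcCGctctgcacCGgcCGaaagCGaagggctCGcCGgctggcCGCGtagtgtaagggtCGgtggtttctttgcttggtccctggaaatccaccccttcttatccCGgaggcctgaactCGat
GRIN1 distal peak: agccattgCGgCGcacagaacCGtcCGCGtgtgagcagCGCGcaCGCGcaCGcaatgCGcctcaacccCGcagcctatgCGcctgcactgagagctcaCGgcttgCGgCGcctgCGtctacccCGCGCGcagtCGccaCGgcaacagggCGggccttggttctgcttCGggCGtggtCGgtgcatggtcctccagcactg
NR2F6 exon peak: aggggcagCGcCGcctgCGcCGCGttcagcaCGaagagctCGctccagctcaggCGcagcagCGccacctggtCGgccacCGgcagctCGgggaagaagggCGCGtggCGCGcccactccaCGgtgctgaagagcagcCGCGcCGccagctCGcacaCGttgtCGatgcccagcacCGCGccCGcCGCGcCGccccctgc
CUX1 upstream peak: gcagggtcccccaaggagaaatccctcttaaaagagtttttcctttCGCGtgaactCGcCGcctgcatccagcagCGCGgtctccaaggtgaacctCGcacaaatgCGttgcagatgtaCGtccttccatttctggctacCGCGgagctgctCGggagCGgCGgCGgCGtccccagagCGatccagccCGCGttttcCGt
PPIAL4G distal peak: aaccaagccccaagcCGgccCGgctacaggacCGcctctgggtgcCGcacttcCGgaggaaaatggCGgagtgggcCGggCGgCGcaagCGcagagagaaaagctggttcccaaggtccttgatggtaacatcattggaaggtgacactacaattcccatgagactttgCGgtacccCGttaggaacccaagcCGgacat

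The CpG content of these windows differed more than their GC content did. The NR2F6 exon window held 29 CpG and the GRIN1 and STX11 windows 26 each, whereas the CLEC11A window held 11 and the GNGT2 window 12. The CUX1 window had a GC content of 60.5% and the CLEC11A window 69%, yet the former held 20 CpG. In the CLEC11A window the SP/KLF letters GGGCGG, read on the minus strand, stood at bases 42 to 47. In the PPIAL4G window the ETS letters CCGGAAGT, also on the minus strand, stood at bases 49 to 56. A CTCF motif was found in none of the 8 windows.

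The rule was applied in steps. Of the 28265 peaks, 23634 were at least 200 bp wide and 11966 of those were distal. Without a G4 motif 10789 were left, and the GATA and AP-1 criteria reduced them to 3619 and then 2707. Of these, 769 reached the GC threshold and 303 the CpG threshold as well. Thus most distal peaks without G4, GATA or AP-1 motifs were not CpG-rich. Just inside the thresholds stood peaks with a GC content of 55.02%, a CpG ratio of 0.6005, a width of 200 bp and a distance of 1021 bp. Just outside, with every other criterion met, stood peaks with a GC content of 54.93%, a CpG ratio of 0.5996, a width of 198 bp and a distance of 999 bp. The distance criterion alone kept out 3219 peaks and the CpG ratio alone 466.

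The other 3 classes of the same list, each differing from the distal CpG-rich peaks in 1 part of the rule, served for comparison. They were 271 distal CpG-rich peaks with a G4 motif, 3219 CpG-rich peaks without a G4 motif within 1 kb of a transcript start, and 2404 distal peaks without a G4 motif that missed the GC or the CpG criterion. All 3 met the width, GATA and AP-1 criteria. Shares were compared by odds ratios in a family of 57, each with an interval at 99.9% confidence (Woolf, 95% divided by Bonferroni over the family). A ratio is called different from 1 where its interval leaves out 1, which held for 9 of the 57 (15.8%). Of the 9, 3 are width ratios, on which the selection rule bears, and no difference in width is drawn from them. The called ratios for coding exons, introns and CCAAT are against the CpG-poor class, which the GC and CpG criteria define. These were not adjusted for GC content. The family was cut from 59 to 57 after the data were seen, by leaving out the CRE and the short CRE against the CpG-poor class, and with both put back the same 9 were called.

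The distal CpG-rich peaks had a median GC content of 65.9%, with a range of 55.02 to 78.6%. Their median CpG ratio was 0.771 (95% order-statistic interval 0.747 to 0.797), and the highest was 1.21. As both measures belong to the rule, they describe the peaks and were not tested. The CpG-rich peaks near a start had nearly the same median GC content (65.9%) but a median CpG ratio of 0.867 (0.862 to 0.872). A distal CpG-rich peak held 28 CpG at the median, from 10 to 106. The peaks farther from a start did not have lower ratios. The median was 0.737 (0.713 to 0.798) for the 76 peaks at 1 to 2 kb, 0.767 (0.739 to 0.799) for the 148 at 2 to 10 kb and 0.813 (0.754 to 0.846) for the 79 beyond 10 kb, and these intervals overlapped.

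**Figure D1:**
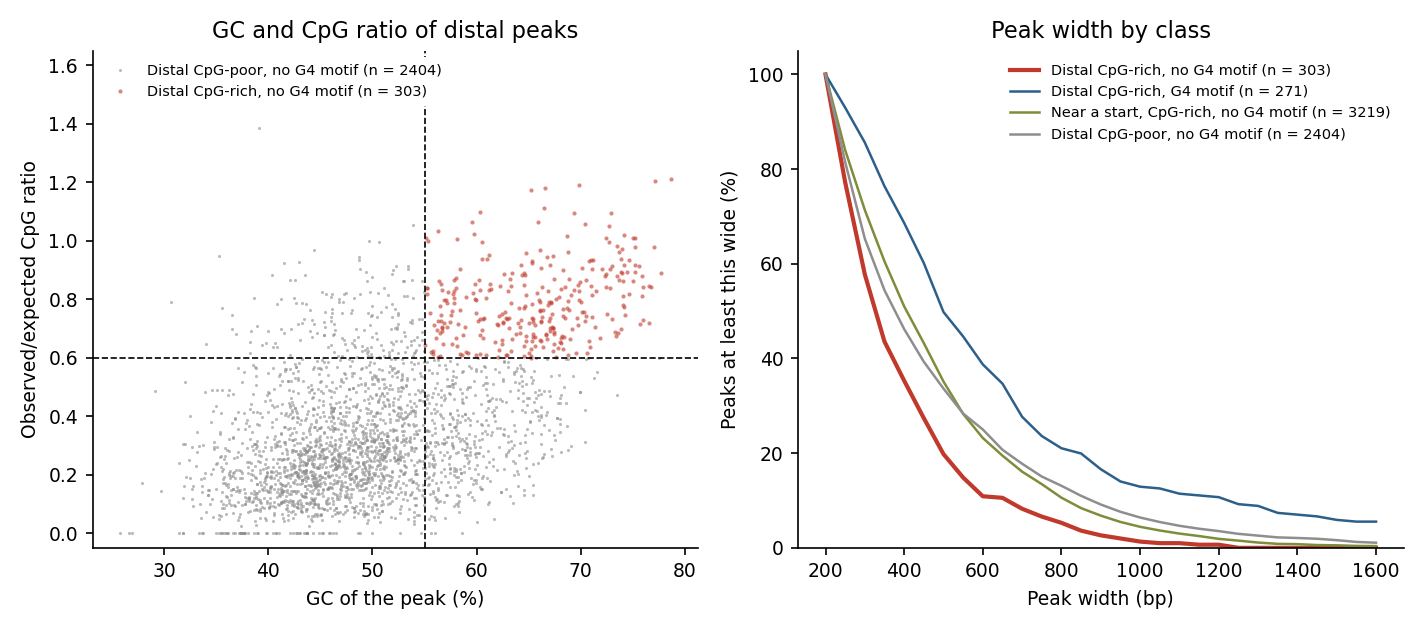
Left, GC content against CpG ratio for the 2707 distal peaks without G4, GATA or AP-1 motif, 1 point per peak, with dashed lines at the thresholds of 55% and 0.6 and the 303 distal CpG-rich peaks in red. Right, share of each class (%) at least as wide as the width on the x axis (bp), where the distal CpG-rich peaks form the lowest curve, with 19.8% at 500 bp.

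The width of these peaks depended on how the G4 motif was searched. With the whole peak searched, their median width was 317 bp (302 to 341 bp), compared with 497 bp (461 to 567 bp) for the distal CpG-rich peaks with a G4 motif, 406 bp (395 to 415 bp) for the peaks near a start and 376 bp (365 to 390 bp) for the CpG-poor ones. A width of at least 500 bp was reached by 60 of the 303 (19.8%, 95% Wilson interval 15.7 to 24.7%). The odds ratio was 0.249 (99.9% interval 0.133 to 0.466) against the class with a G4 motif, of which 49.8% were that wide, but the rule sorts wide peaks into that class and no difference is drawn from it. The ratio was 0.456 (0.278 to 0.748) against the peaks near a start (35.1%) and 0.487 (0.295 to 0.803) against the CpG-poor peaks (33.7%). A wide peak has more positions at which a G4 motif can occur, so a search of the whole peak removes wide peaks by construction. The width ratios were therefore recomputed, as an alternative added after the data were seen, with the motif counted in the central 200 bp only. The 412 peaks that then qualified had a median width of 378 bp (346 to 409 bp), compared with 466 bp (428 to 508 bp) in the class with a G4 motif, 499 bp (488 to 511 bp) near a start and 391 bp (377 to 403 bp) in the CpG-poor class. The ratio was then 0.572 (0.303 to 1.08) against the class with a G4 motif and 0.772 (0.527 to 1.13) against the CpG-poor peaks, neither of them different from 1. Against the peaks near a start it was 0.436 (0.302 to 0.630). Only the ratio against the peaks near a start was thus called under both searches. The GC and CpG thresholds also apply to the whole peak, and no width ratio was computed with them in the central 200 bp only. Width therefore stays tied to the rule, and no difference in width is drawn from this ratio. At a threshold of 1000 bp, reached by few peaks, the ratio against the peaks near a start was 0.288 (0.0526 to 1.57), further from 1 but no longer called. Against the class with a G4 motif it was 0.0902 (0.0152 to 0.535).

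The CpG density was highest at the peak midpoint, as the rule nearly ensures, and fell off on both sides. In the 100 bp just after the midpoint there were on average 9.68 ± 0.220 CpG (SE over 303 peaks), and in the 100 bp centred 550 bp before it 3.77 ± 0.195. At 2950 bp the density was 2.30 ± 0.153 before and 2.20 ± 0.138 after the midpoint. Around the peaks near a start the densities at that distance were 1.56 ± 0.0337 and 1.47 ± 0.0330 per 100 bp, from a central value of 10.4 ± 0.0695. At 550 bp before the midpoint these peaks had 4.96 ± 0.0738. Around the distal CpG-rich peaks with a G4 motif the densities at 2950 bp were 2.30 ± 0.183 and 2.42 ± 0.185, and around the CpG-poor peaks 1.81 ± 0.0484 and 1.71 ± 0.0462. At the edges of the window all 3 distal classes thus had a higher mean density than the peaks near a start. The central densities follow from the GC and CpG criteria, the distance criterion bears on the edges, as starts can lie inside the window, and none of these densities was tested.

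**Figure D2:**
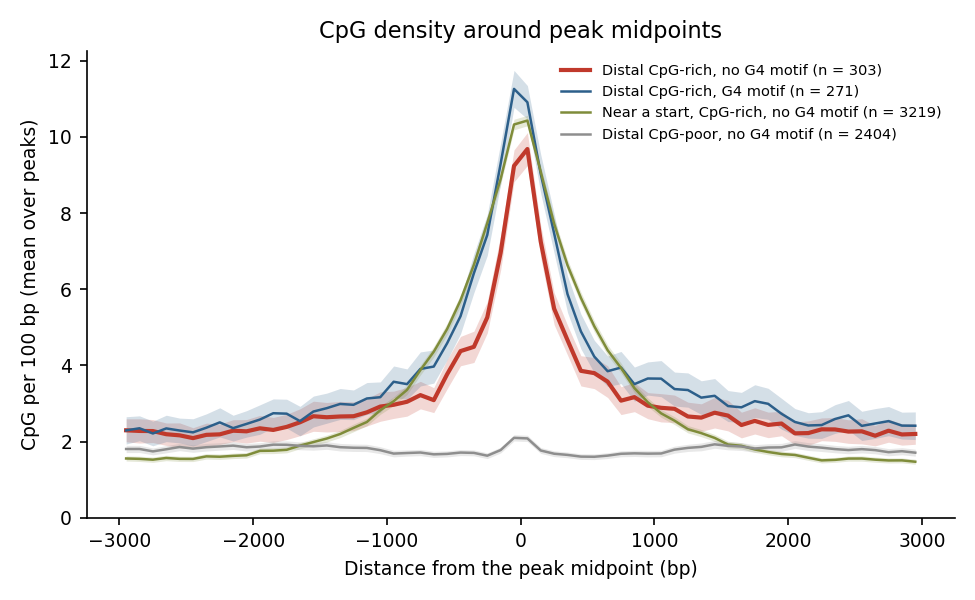
Mean number of CpG per 100 bp against the distance from the peak midpoint (bp) for the 4 classes, with 95% bands from the SE over peaks. The distal CpG-rich peaks (red) reach 9.68 CpG per 100 bp at the midpoint and 2.20 at the right edge.

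The CpG-rich stretch around a distal CpG-rich peak was mostly longer than the peak. The genome was searched for segments of at least 200 bp that met the same GC and CpG criteria, and 302 of the 303 midpoints (99.7%, Wilson interval 98.2 to 99.9%) lay in one, as the rule for the peaks nearly ensures. The segment was longer than the peak in 283 cases (93.4%, 90.0 to 95.7%) and shorter in 19. The segments had a median length of 767.5 bp (721 to 812 bp), from 216 to 3926 bp, and the peak was at the median 49.5% (45.9 to 53.2%) as long as its segment. As the peaks were chosen by the same GC and CpG criteria, these lengths follow in part from the rule. They were not set beside those of another class and were not tested. Some segments hold more than 1 of the peaks and are counted once for each peak. In 234 cases (77.2%, 72.2 to 81.6%) the segment was at least 500 bp long and in 92 (30.4%, 25.5 to 35.8%) at least 1000 bp. The segment reached to within 1 kb of a transcript start for 48 of the peaks (15.8%, 12.2 to 20.4%), and for 18 of these it held the start itself. At 254 peaks (83.8%, 79.3 to 87.5%) the whole segment was more than 1 kb from every start. Thus most of these peaks lay on a CpG-rich segment apart from any annotated start. The others were found mostly at 1 to 2 kb, where the segment reached within 1 kb of a start for 59.2% of the 76 peaks (48.0 to 69.6%), compared with 2.03% of the 148 at 2 to 10 kb (0.692 to 5.79%).

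Such a segment away from a start seldom held a SMARCA4 peak. Among all 179188 CpG-rich segments of the genome without a G4 motif and without a GATA or AP-1 site in their centre, 4170 (2.33%) shared at least 1 bp with a peak. Of the 150941 whose midpoint was distal, 1221 did so (0.809%, Wilson interval 0.765 to 0.855%), compared with 2949 of the 28247 within 1 kb of a start (10.4%, 10.1 to 10.8%). The odds ratio was 0.0700 (99.4% interval 0.0636 to 0.0769, Bonferroni over 8 ratios). The shares grew with length in both groups. In segments of 200 to 299 bp they were 0.579% and 3.19%, and at 1000 bp or more they were 5.21% (42 of 806) and 51.5% (716 of 1389), with an odds ratio of 0.0517 (0.0327 to 0.0817). A longer segment offers more positions at which a peak can share a base, and the repeats among the short segments were not measured. By CpG ratio, among segments of at least 500 bp, a peak was held by 2.46% (2.11 to 2.87%) of the distal ones at 0.6 to 0.75, 6.06% (4.85 to 7.54%) at 0.75 to 0.9 and 4.18% (2.35 to 7.33%) at 0.9 or more. Near a start these shares were 21.2%, 50.5% and 51.8%. Among distal segments of at least 500 bp, the share was 4.91% (3.80 to 6.33%) at 1 to 2 kb from a start, 2.16% (1.68 to 2.79%) at 10 to 50 kb and 0.857% (0.393 to 1.86%) beyond 50 kb.

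**Figure D3:**
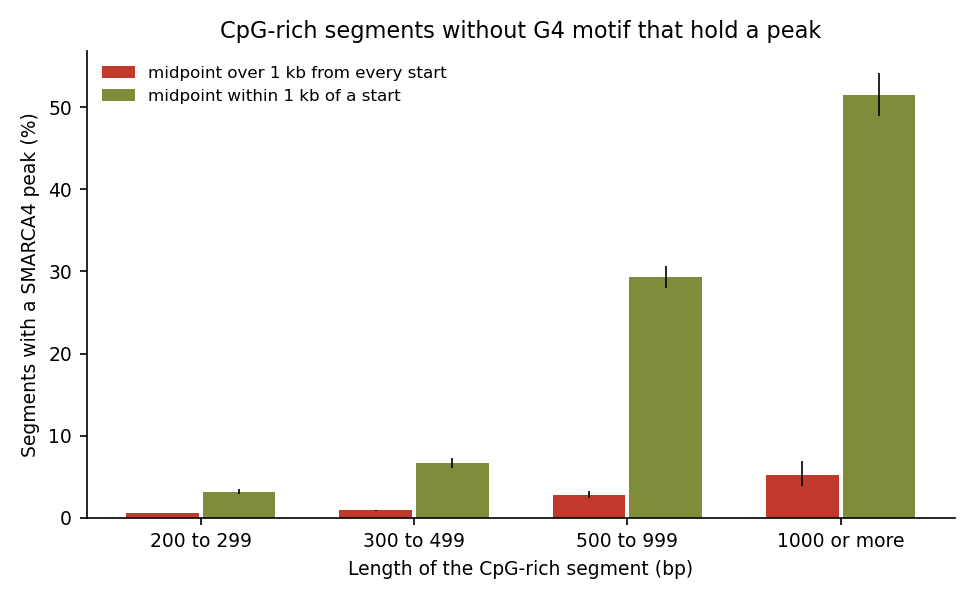
Share (%) of CpG-rich segments without G4 motif that share at least 1 bp with a SMARCA4 peak, by segment length (bp), for segments whose midpoint is over 1 kb from every start (red) or within 1 kb of one (green). Bars are 95% Wilson intervals. In the longest class the shares are 5.21% and 51.5%.

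How far the distal CpG-rich peaks lay from a start depended on which starts were counted. The nearest transcript start of any kind lay 4103 bp away at the median (3391 to 4827 bp), and the nearest protein-coding start 10159 bp (7937 to 13007 bp). For any start the median was nearly the same in the class with a G4 motif, 4124 bp (3483 to 5044 bp). In the CpG-poor class it was 5635 bp (5285 to 6032 bp). Distance belongs to the rule, and these values were not tested. Within 1 to 2 kb of a start of any kind lay 76 peaks (25.1%, Wilson interval 20.5 to 30.3%), within 2 to 5 kb 98 (32.3%, 27.3 to 37.8%), and beyond 50 kb only 4. From the nearest protein-coding start, 120 (39.6%, 34.3 to 45.2%) were 10 to 50 kb away and 35 (11.6%, 8.42 to 15.6%) more than 50 kb. They lay about as often downstream of the nearest coding start (166 peaks, 54.8%, 49.2 to 60.3%) as upstream of it.

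Coding exons held a larger share of them than of the CpG-poor peaks. The midpoint lay in a coding exon for 31 of the 303 (10.2%, 7.30 to 14.2%) but for 38 of the 2404 CpG-poor peaks (1.58%, 1.15 to 2.16%), an odds ratio of 7.10 (99.9% interval 3.09 to 16.3). Introns held 107 (35.3%, 30.1 to 40.8%) against 54.6% of the CpG-poor peaks, with an odds ratio of 0.454 (0.297 to 0.692). Another 140 (46.2%, 40.7 to 51.8%) were intergenic, 15 lay in untranslated regions and 10 in exons of non-coding transcripts. For intergenic sequence the ratio against the CpG-poor class was 1.43 (0.953 to 2.16), which is not different from 1. Against the distal CpG-rich peaks with a G4 motif none of the 5 locations had a ratio different from 1, and coding exons held 9.59% of that class. Coding sequence is itself GC-rich, which the comparison did not adjust for. Of the 79 peaks beyond 10 kb from a start, 67.1% (56.1 to 76.4%) were intergenic and 5.06% (1.99 to 12.3%) lay in a coding exon. For the 76 peaks at 1 to 2 kb these shares were 22.4% (14.5 to 32.9%) and 18.4% (11.3 to 28.6%). The coding exon intervals overlapped, and the contrast was not tested.

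**Figure D4:**
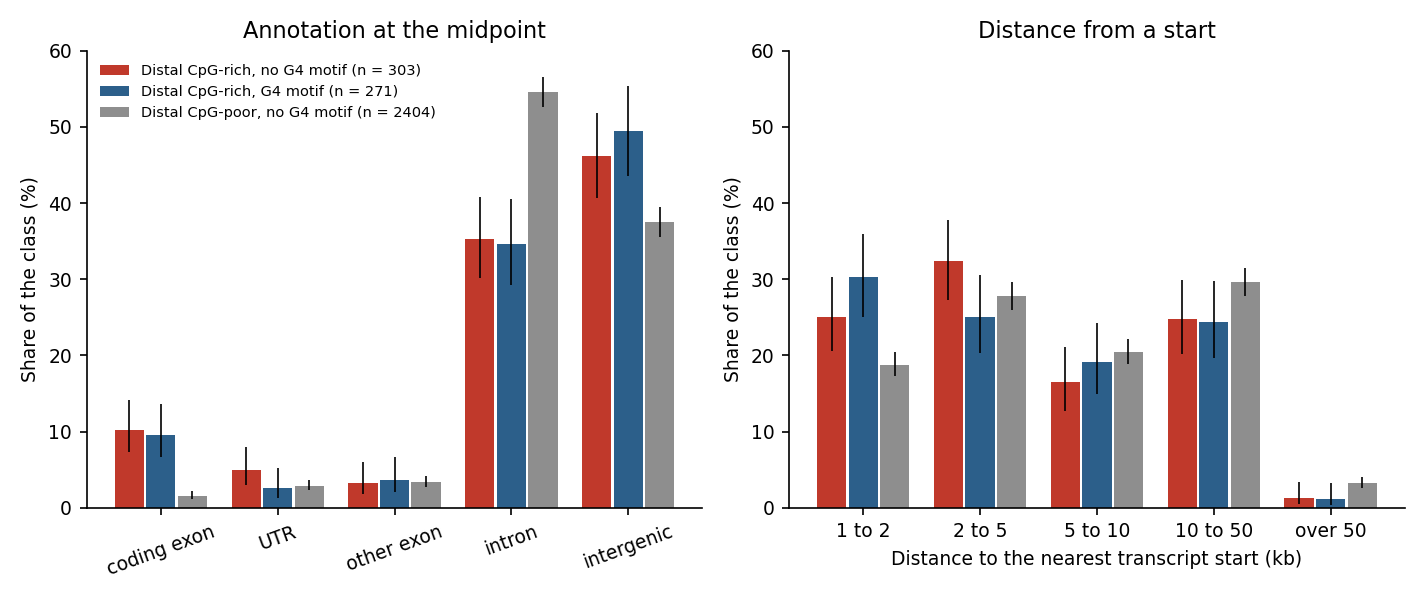
Left, share (%) of 3 distal classes by the annotation at the peak midpoint, and right, by the distance to the nearest transcript start (kb). Bars are 95% Wilson intervals. Coding exons hold 10.2% of the distal CpG-rich peaks and 1.58% of the CpG-poor ones.

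A second peak was within 2 kb of 107 distal CpG-rich peaks (35.3%, 30.1 to 40.8%), and in 41 of these cases the neighbour lay within 1 kb of a transcript start. At 1 to 2 kb from a start 65.8% (54.6 to 75.5%) had such a neighbour and beyond 10 kb 20.3% (12.9 to 30.4%). The next peak was more than 10 kb away for 108 (35.6%). The ratio for a neighbour was not called different from 1 against any other class, being 0.722 (0.476 to 1.10) against the peaks near a start (43.1%).

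The central 200 bp were searched for 20 motifs on both strands, and a match describes the letters in that window, not a bound factor. The motif of CTCF, a zinc finger protein that anchors chromatin loops and insulates domains, set the distal CpG-rich peaks apart from CpG-rich peaks near a start. It was found in 31 of the 303 (10.2%, 7.30 to 14.2%) and in 42 of the 3219 (1.30%), an odds ratio of 8.62 (99.9% interval 3.81 to 19.5). Stratified by GC content in classes of 2 percentage points, the Mantel-Haenszel ratio was 9.13 (3.95 to 21.1). Of all 28265 peaks 2.18% held it. The CpG-poor peaks held it in 6.24% of cases, which was not tested, and the distal CpG-rich peaks with a G4 motif in 5.54%, a ratio of 1.95 (0.657 to 5.76) that is not different from 1. The share in the distal CpG-rich peaks was thus larger than near a start and could not be told apart from that in the class with a G4 motif.

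The 31 peaks with a CTCF motif were farther from starts and more isolated. Only 1 of them lay within 2 kb of a start (3.23%, 0.572 to 16.2%), compared with 75 of the 272 others (27.6%, 22.6 to 33.2%). Another peak was within 2 kb for 4 (12.9%, 5.13 to 28.9%) compared with 103 (37.9%, 32.3 to 43.8%). Their median distance from a start was 6701 bp (4031 to 10225 bp), that of the others 3987 bp (3169 to 4604 bp). The median distance between the motif and the peak midpoint was 32.5 bp (11.5 to 50.5 bp), and 21 of the 31 motifs (67.7%) were within 50 bp of it. The medians were alike in the 3 other classes (27.5, 34 and 33.5 bp). The split was made after the motif shares were seen and is given without a test.

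The ETS and SP/KLF motifs were less frequent than near a start, each with a call that depended on the setting. The letters CCGGAAGT, bound by ETS factors, were found in 4 distal CpG-rich peaks (1.32%) and in 248 of the peaks near a start (7.70%), an odds ratio of 0.160 (0.0296 to 0.868). All 28265 peaks held them in 1.98% of cases. The SP/KLF letters GGGCGG, the GC box of many promoters, were found in 147 (48.5%, 42.9 to 54.1%) against 58.5%, a ratio of 0.668 (0.447 to 0.997), and in 30.1% of all peaks. This interval ends close to 1, and the call was lost on the autosomes alone (0.666, 99.9% interval 0.444 to 1.0003) and for the peaks beyond 2.5 kb from a start (0.709). For ETS the call was also lost beyond 2.5 kb, where the ratio was 0.184. YY1, with the letters AAGATGGC, pointed the same way with 2 peaks (0.660%) against 3.76% (1.56% of all peaks), but its interval (0.0157 to 1.84) held 1.

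For the other motifs no ratio against the peaks near a start was different from 1 in the central window. Counted anywhere in the peak, where the narrower distal peaks offer fewer positions, CACCC (0.626), TGACGTNN (0.438) and CCAAT (0.563) were less frequent. Frequent motifs were the G run GGGGG in 60.7% (43.0% of all peaks), the CACCC box CCNCNCCC in 54.1% (40.7%) and the TFAP2 letters GCCNNNGGC in 34.7% (15.5%). The NFY letters CCAAT were found in 11.9% (19.2%), the E-box CAGCTG in 10.9% (14.1%), the E-box CACGTG in 6.60% (5.00%) and the ZFX letters AGGCCTNG in 5.94% (4.71%). The short CRE TGACGTNN and the palindrome GCGCGCGC were found in 3.63% each, against 4.39% and 2.33% of all peaks. Rare were the E2F cores TTTCCCGC and TTTGGCGC in 2.97% (1.16045%), the tRNA B box core GTTCGANNC in 2.97% (1.32%), the NRF1 core GCGCATGCG in 2.64% (0.877%), the full CRE TGACGTCA in 1.32% (0.941%) and the EGR letters GCGTGGGCG in 1.32% (0.481%). The letters TCTCGCGA of Kaiso and BANP and TGTGGTTT of RUNX, held by 0.552% and 1.66% of all peaks, were found in 0 of the 303, which allows a share of up to 1.25%. The GC criterion bears on these comparisons with all peaks, whose median GC content was 53.2%, and they were not tested. Near a start the G run was found in 56.6%, CACCC in 57.1% and TFAP2 in 27.1%. CCAAT was less frequent than in the CpG-poor peaks (21.0%, ratio 0.508, 0.275 to 0.939), whose median GC content was 48.0%, and this ratio was not adjusted for GC content. SP/KLF and CACCC matches shared bases in 64 of the 100 peaks that held both, and every full CRE also matches the short one. The counts of such motifs are thus not independent. Between the classes with and without a G4 motif, none of the 15 motifs tested had a ratio different from 1. The motifs with a run of guanines or cytosines, which the G4 criterion itself affects, were not tested. Of these SP/KLF was found in 48.5% against 74.5% of the class with a G4 motif, CACCC in 54.1% against 76.8%, the G run in 60.7% against 77.1%, E2F in 2.97% against 1.85% and EGR in 1.32% against 0.369%.

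**Figure D5:**
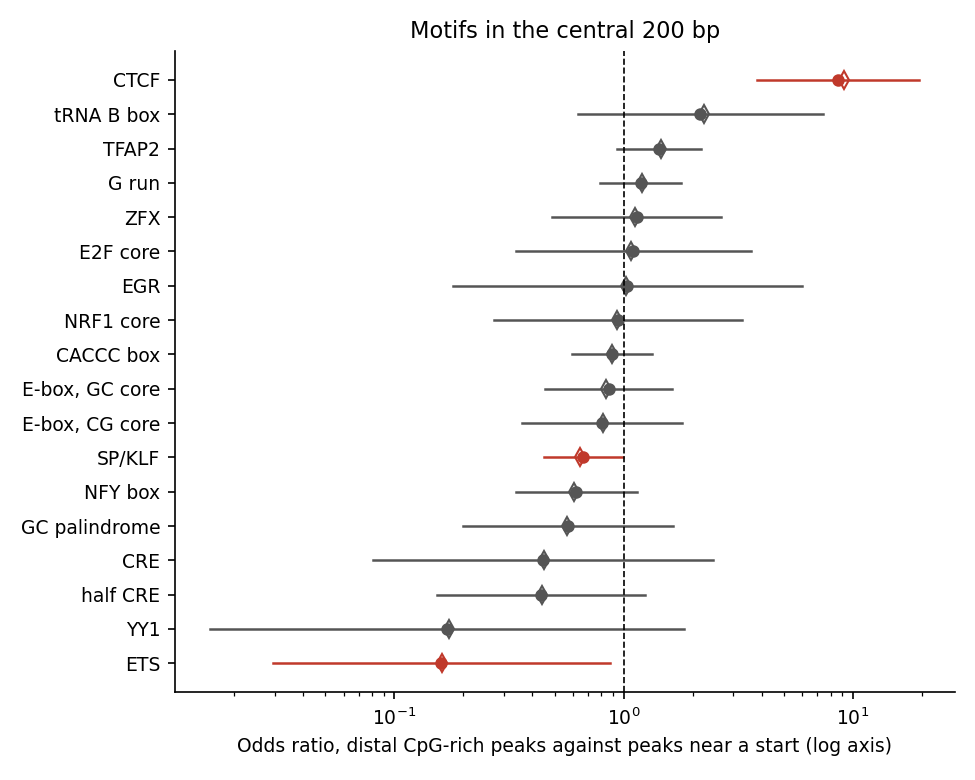
Odds ratio of each motif in the central 200 bp, 303 distal CpG-rich peaks against 3219 CpG-rich peaks near a start, on a log axis. Filled points are crude ratios with 99.9% intervals, open diamonds are Mantel-Haenszel ratios over GC classes, and red marks intervals that leave out 1 (CTCF, SP/KLF and ETS). Motifs found in 0 distal CpG-rich peaks are left out.

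The excluded motifs were not wholly absent from these peaks. Outside the central window 40 of the 303 (13.2%, 9.85 to 17.5%) held a GATA site and 10 (3.30%, 1.80 to 5.97%) an AP-1 site. A GATA site was found there in 13.8% of the peaks near a start, 19.6% of the class with a G4 motif and 41.0% of the CpG-poor class, which differ in width.

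The widest of the distal CpG-rich peaks was 1215 bp long, at chr19:18498770-18499984. Its midpoint lies in a coding exon of GDF15, a stress-induced cytokine of the TGF-beta family, and it held 97 CpG. The second, 1209 bp at chr17:47269000-47270208, is intergenic, 16670 bp from the start of GNGT2, and the next peak was 84508 bp away. The fourth, 1029 bp at chr17:73029830-73030858, lies in an intron of KCTD2, a partner of cullin ubiquitin ligases, with another peak 100 bp away. The fifth, in the CLEC11A intron, was 961 bp wide with 102 CpG. The sixth, 955 bp at chr6:144537052-144538006, was 15427 bp from any start and 64688 bp from that of STX11, a syntaxin of cytotoxic granule release. The third is 1111 bp wide, intergenic and 5940 bp upstream of TRAPPC9, a vesicle trafficking gene in an imprinted region. Wide distal peaks were thus found both inside genes and in intergenic sequence.

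The highest CpG ratio among the peaks of at least 400 bp was 1.03, in a 796-bp intergenic peak at chr10:22517899-22518694. A 543-bp peak at chr9:140023988-140024530 followed with 1.02. It lies 8539 bp upstream of GRIN1, which encodes an NMDA receptor subunit, in a CpG-rich segment of 2234 bp. The third, with 1.01, covers 533 bp of NR2F6 at chr19:17346321-17346853. Next were an intergenic peak at chr17:66015799-66016378, 15663 bp upstream of the importin gene KPNA2 (1.00), the CUX1 upstream peak (0.997) and a coding exon of FAM110D at chr1:26488077-26488721 (0.962).

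The peak farthest from any start was the one at chr7:101386517-101386949, 72451 bp upstream of CUX1, a homeodomain transcription factor gene. The second, at chr1:142890868-142891234, was 65665 bp from a start, but only 25% of the 75-base reads cut from its sequence map to 1 place, so its position in the genome is uncertain. The third lies at chr5:134527091-134527388 in an intron of PITX1-AS1, 56265 bp from a start and 156737 bp upstream of PITX1, a homeodomain factor of hindlimb and pituitary development. The others were at chr13:97762227-97762441, 52701 bp from any start, which held a CTCF motif and has the splicing regulator gene MBNL2 as the nearest coding gene, at chrX:9310598-9310871 near FAM9B (47013 bp) and at chr18:45275520-45275744 (46086 bp from a start), whose nearest coding start is that of SMAD2, a TGF-beta signal transducer. The last was the only distal CpG-rich peak on chromosome 18 and the next peak was 180830 bp away.

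Protein-coding genes whose start was the nearest to a distal CpG-rich peak numbered 287 of 19794 (1.45%). Most, 272, were nearest to 1 peak and 15 to 2 or more. The midpoint lay inside a coding gene for 130 peaks, inside a non-coding gene only for 33 and in no gene for 140. Of 37 erythroid and leukaemia regulators, 2 were nearest to a peak (5.41%). To a distal peak of some kind 31 of the 37 were nearest (83.8%), as were 5825 of all coding genes (29.4%). LYL1, a basic helix-loop-helix factor of blood stem cells that is rearranged in T-cell leukaemia, had 2 of them. One was 1361 bp upstream of a LYL1 start at chr19:13215212-13215459, and the other lay in a LYL1 coding exon at chr19:13209996-13210488, in a CpG-rich segment of 2431 bp. The third peak of this list was in an intron of ZBTB7A, a repressor of fetal globin genes, at chr19:4064094-4064384, 1491 bp from the start and 441 bp from another peak.

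The other lists gave small numbers as well. Among 186 developmental transcription factor genes, 7 were nearest to a peak (3.76%), namely FOXL2, HOXB3, HOXB9, HOXC8, NKX1-1, SOX12 and TBX1. In the HOXB cluster, which specifies position along the body axis, peaks lay in an intron of HOXB3 (chr17:46662641-46663015), in introns of HOXB7 and HOXB9 (chr17:46702515-46702822) and in an exon of LINC03057 upstream of HOXB9 (chr17:46713780-46714200). The HOXB peaks were singled out after the values were seen. Of 35 imprinted genes 2 were nearest (5.71%), WT1 and TRAPPC9, and of 23 DNA methylation factors 2 (8.70%), the methyltransferase gene DNMT3A and CXXC5, a CpG-binding zinc finger gene. Of 29 SWI/SNF subunits 1 (3.45%) was nearest, ARID1B, 14723 bp from its peak. To a distal peak of some kind 25.8% of the developmental, 22.9% of the imprinted, 47.8% of the DNA methylation and 44.8% of the SWI/SNF genes were nearest. With so few genes in each list, these shares are given as counts beside the 1.45% and 29.4% of all coding genes and were not tested.

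Chromosome 19 held 57 of the 303 peaks (18.8%), the most of any chromosome, followed by chromosome 1 with 31 and chromosome 17 with 26. Of the distal peaks of at least 200 bp on chromosome 19, 8.65% (57 of 659, Wilson interval 6.74 to 11.0%) were CpG-rich without the excluded motifs, compared with 2.18% (246 of 11307, 1.92 to 2.46%) elsewhere. The density was 1.02 peaks per Mb there, 0.334 on chromosome 17 and 0.138 on chromosome 1. Distal CpG-rich segments of at least 500 bp also held a peak more often on chromosome 19, with 44 of 528 (8.33%, 6.27 to 11.0%) compared with 200 of 7417 on the other chromosomes (2.70%, 2.35 to 3.09%). Chromosome 19 was singled out after the counts were seen, so these shares are a description.

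Most of the sequence can be read without ambiguity. At 282 of the 303 peaks (93.1%) at least 95% of 75-base reads cut from the sequence mapped to 1 place. In the other 21 the median share was 83.3%, and in 4 it was under 50%. In the other classes 87.6 to 97.0% of peaks met this limit, and no odds ratio was called different from 1. It was 0.453 (0.199 to 1.03) against the peaks near a start and 1.90 (0.871 to 4.15) against the CpG-poor ones. The 95% Wilson interval for the 303 peaks (89.6 to 95.4%) nevertheless lay apart from those of both classes (96.1 to 97.3% and 86.2 to 88.9%). A difference from these classes is therefore not excluded.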

How the data were processed

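The deposited list gives a start and an end in bp for each region on hg19, the assembly named in the submitters' notes. According to the deposited notes the authors used cutadapt, BWA, Picard, SAMtools, MACS2 and bedtools. Regions were read as given, and sequence, GENCODE transcripts and motifs were assigned by position. Reads of 75 bases, cut every 25 bases, were mapped back with minimap2 2.31-r1302, and reads with a mapping quality of 10 or more were taken to have 1 place in the genome. CpG-rich segments were merged 200-bp windows that met the GC and CpG criteria, trimmed until the whole segment met them. Calculations used Python 3.11.15, numpy 2.4.6, scipy 1.17.1, pandas 2.3.3 and matplotlib 3.10.9, and the code was tested on simulated data. Peaks named one by one were the 6 widest, the 6 with the highest CpG ratio among those of at least 400 bp, the 6 farthest from a start, and those nearest to a gene of the erythroid list, each with its host gene or else its nearest coding gene. The HOXB peaks were named in addition, after the values were seen. Sequences were printed for up to 8 of the first 3 sets, none of them on chromosome 8 or overlapping an untranslated region. The peaks and the gene lists were chosen with earlier results of these data known. The reference carries no soft-masking, so the share of repeats was not computed.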

Additional observations from a re-analysis of the deposited data

How the results depend on the processing

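No paired analysis was possible because the labels share only replicate numbers, the list pools the replicates and no test over samples was made. Leaving out 1 replicate was not possible with the pooled list. The alternative based on soft-masking was not run. Counts, shares, widths and width ratios were recomputed, with the count of called ratios at a family of 59. Of these values, 52 were labelled unchanged, 22 were labelled moved and 4 lost their call. The labels do not measure the size of a shift. Against 303 peaks, unchanged covers 412 with the G4 motif in the central 200 bp only and 237 at a GC content of at least 60%. By contrast, a share of 100% in a CpG-rich segment against 99.67% was labelled moved. Among recomputed motif ratios, 100 were unchanged in call, 3 gained one and 3 lost it. No called ratio that was recomputed reversed. The ratios for coding exons, introns and CCAAT against the CpG-poor class were not recomputed.

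The number of peaks was 190 with G4 loops of 1 to 12 bases, 198 beyond 2.5 kb from every start, 557 beyond 1 kb from coding starts only, 166 at a CpG ratio of at least 0.75 and 107 at a width of at least 400 bp, by construction of each rule. The median width was 378 bp with the G4 motif counted in the centre only and 538 bp at a width of at least 400 bp. The intron share was 27.8% beyond 2.5 kb, 29.3% with coding starts only and 24.8% with coding transcripts only. The intergenic share was 57.6%, 38.8% and 60.1% in the same order. The coding exon share was 7.07% beyond 2.5 kb and 14.5% at a CpG ratio of at least 0.75, where 100% lay in a CpG-rich segment. With coding starts only, 59.2% lay at most 2 kb from a transcript start of any kind. This share includes peaks within 1 kb of a start not counted as coding, which that rule lets in. At a threshold of 1000 bp the width ratio was 0.288 against the peaks near a start and 0.195 against the CpG-poor peaks, both no longer different from 1, whereas it was 0.0902 against the class with a G4 motif, still called. With the G4 motif counted in the centre only (412 peaks), an alternative added to the width ratios after seeing the data, it was 0.572 against the class with a G4 motif and 0.772 against the CpG-poor peaks, also not different from 1. The share of distal segments with a peak was 3.07% at 500 bp or more, 1.13% at a CpG ratio of at least 0.75, 0.437% when the peak had to share 50% of the segment and 0.722% with peaks of at least 200 bp only. Genes whose body holds a midpoint numbered 130. Where the rule itself does not account for a shift, the cause was not tested.

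The list has no heights and no read depth, so weak and strong peaks were not told apart, and what deeper sequencing would add is unknown. Width depends on the peak caller as well as on the protein. The motifs are letters, not occupancy.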
